A study of Mus musculus with 12 samples.

Results

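The Fc gamma receptors of mouse macrophages and the signalling chain they share were followed across 12 arrays. They were chosen by gene name as Fcgr1, Fcgr3, Fcgr4, Fcgr2b and Fcer1g, and all 5 were among the 19938 genes with a probe set of their own, 1 probe set each. The macrophages had been drawn into the peritoneum with thioglycollate, in C57BL/6 mice kept on a high-fat diet or on chow for 12 weeks, starting at 6 weeks of age. The macrophages were cultured with red blood cells (RBC) of high-fat-fed mice, with RBC of chow-fed mice or without RBC, which gives 6 groups of 2 arrays numbered as separate animals. In order these were high-fat macrophages with high-fat RBC, with chow RBC and without RBC, and chow macrophages with high-fat RBC, with chow RBC and without RBC. All groups share strain and thioglycollate, so resident, unelicited macrophages are not represented. The labels do not say whether cultures with the same animal number came from the same mouse, nor whether antibody was bound to the RBC.

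Fc gamma receptors bind the constant part of IgG and let macrophages engulf antibody-coated particles, red cells among them. The activating receptors encoded by Fcgr1, Fcgr3 and Fcgr4 carry no signalling motif of their own and rely on the common gamma chain encoded by Fcer1g, whose ITAM motif is phosphorylated by Src family kinases and recruits Syk. The receptor encoded by Fcgr2b carries an inhibitory ITIM motif and opposes them through the lipid phosphatase SHIP1. The balance between activating and inhibitory receptors sets the threshold at which a macrophage responds to immune complexes, and interferon gamma and C5a on one side and interleukin 4 on the other are known to shift it.

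Fcgr1 lies on chromosome 3 and the other 4 genes on chromosome 1. The 300 bases around each transcription start (250 before, 50 after) were taken from RefSeq, build GRCm38.p6, because 4 of these genes moved in different directions across the arrays. All 5 genes matched, with 6 entries, since Fcgr3 has 2 overlapping ones. The 4 receptor promoters are printed 5′ to 3′ on the strand of the gene, Fcgr1 (chr3:96293920-96294219, minus strand), Fcgr3 (chr1:171059354-171059653, minus strand), Fcgr4 (chr1:171018676-171018975, plus strand) and Fcgr2b (chr1:170976022-170976321, minus strand). Capitals mark matches, on either strand, to an interferon regulatory factor core (AANNGAAA) and a PU.1 box (GAGGAA, read TTCCTC on the other strand).
Fcgr1: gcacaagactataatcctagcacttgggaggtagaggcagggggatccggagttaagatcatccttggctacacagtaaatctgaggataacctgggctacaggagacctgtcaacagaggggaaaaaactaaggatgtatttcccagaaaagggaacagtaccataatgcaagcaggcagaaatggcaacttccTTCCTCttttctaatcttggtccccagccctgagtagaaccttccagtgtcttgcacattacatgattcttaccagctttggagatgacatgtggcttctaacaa
Fcgr3: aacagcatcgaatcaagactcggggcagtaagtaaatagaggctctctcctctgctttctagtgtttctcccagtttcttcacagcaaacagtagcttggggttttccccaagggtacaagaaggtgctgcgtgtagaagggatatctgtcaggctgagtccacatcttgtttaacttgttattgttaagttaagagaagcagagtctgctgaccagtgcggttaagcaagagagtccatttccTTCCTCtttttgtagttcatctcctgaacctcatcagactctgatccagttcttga
Fcgr4: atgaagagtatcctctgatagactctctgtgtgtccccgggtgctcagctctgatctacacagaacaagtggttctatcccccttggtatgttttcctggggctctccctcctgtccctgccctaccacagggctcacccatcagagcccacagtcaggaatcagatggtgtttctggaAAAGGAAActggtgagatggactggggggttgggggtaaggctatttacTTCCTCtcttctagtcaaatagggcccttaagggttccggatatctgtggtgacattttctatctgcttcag
Fcgr2b: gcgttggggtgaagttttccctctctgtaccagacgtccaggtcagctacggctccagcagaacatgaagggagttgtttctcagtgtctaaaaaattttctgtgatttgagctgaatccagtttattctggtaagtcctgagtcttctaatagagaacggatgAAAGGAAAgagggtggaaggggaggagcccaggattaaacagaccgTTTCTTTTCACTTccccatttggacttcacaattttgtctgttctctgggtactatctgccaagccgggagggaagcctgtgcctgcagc
The PU.1 box of Fcgr1 begins 55 bases before the start. Among 32851 promoters of this length 23.9% hold an interferon regulatory factor core and 28.3% a PU.1 box, so a single match is common. The PU.1 box stands 6 bases before the start in the Fcgr3 entry shown and 22 in Fcgr4, which also holds an interferon regulatory factor core at 71. In Fcgr2b no PU.1 box was found in this window, but 3 interferon regulatory factor cores were, at 86, 40 and 35 bases before the start, the last 2 overlapping. The Fcer1g promoter (chr1:171234300-171234599, minus strand) held neither motif. These matches describe the sequence and say nothing about binding in these cells.

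The labels name the cells as macrophages, and several genes of the macrophage marker list had a high signal on every array. Cd68 lay between 12.09 and 12.21 log2 signal, Lyz2 between 12.27 and 12.45 and Itgam between 10.15 and 10.52. These are among the steadiest of the list. Cd14 ran from 8.35 to 10.73, Adgre1 from 8.92 to 10.21 and Marco from 5.27 to 7.27. Cd163 and Timd4, both of resident macrophages, did not exceed 3.71 and 4.96. Array medians ran from 4.84 to 4.96, and group mates correlated at 0.9942 to 0.9974 across genes. The 2 arrays of chow macrophages without RBC stood apart, with a median correlation to the other arrays of 0.9845 and 0.9855, against 0.9903 to 0.9943 for the other 10. Comparisons with chow macrophages without RBC rest on these 2 arrays. The lowest correlation between group mates, 0.9942, was that of the 2 arrays of high-fat macrophages without RBC. Comparisons with that group rest on those 2 arrays. Calls on the 5 genes and some of the list counts are given below with single arrays left out.

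The common chain gene had the highest signal of the 5 and the smallest range over the groups. By mean signal Fcer1g stood at percentile 99.7 of all genes, Fcgr3 at 98.2, Fcgr2b at 87.4, Fcgr1 at 82.7 and Fcgr4 at 82.3; probes differ in brightness, so these are ranks of signal and not of transcript number. The range of the 6 group means was 2.15 log2 units for Fcgr1 (percentile 99.6 of all genes), 0.89 for Fcgr2b (96.3), 0.78 for Fcgr3 (95.1), 0.64 for Fcgr4 (92.1) and 0.13 for Fcer1g (6.4), against a median of 0.28 over all genes.

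**Figure D1:**
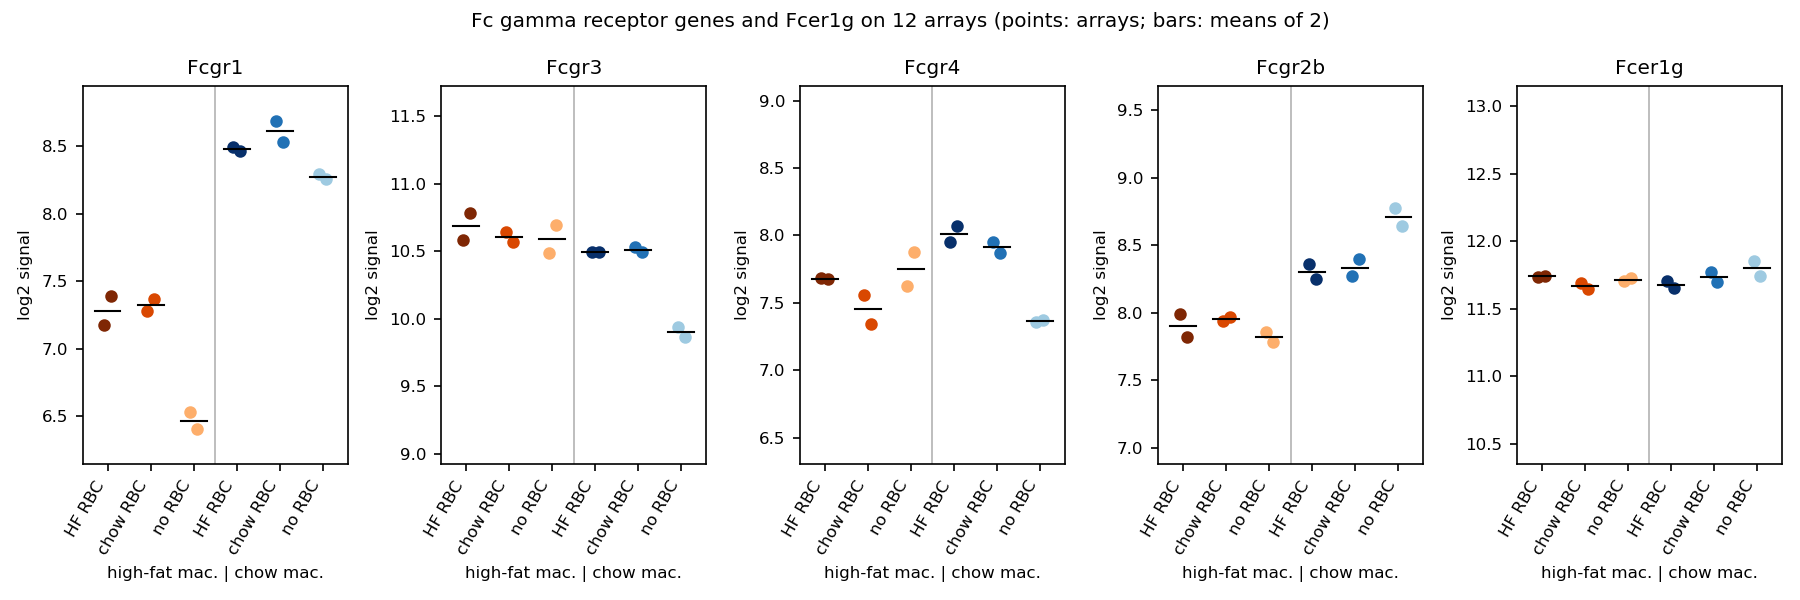
Log2 signal of the 5 genes on each array (points) with group means (bars), high-fat macrophages left of chow macrophages and RBC conditions within each; every panel spans the same number of log2 units. Fcgr1 is lower on all high-fat than on all chow macrophage arrays, and Fcer1g lies between 11.65 and 11.86 throughout.

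Fcgr1 encodes the high-affinity receptor, which can hold monomeric IgG. In high-fat macrophages its log2 signal was 7.17 and 7.39 with high-fat RBC, 7.28 and 7.37 with chow RBC, and 6.53 and 6.40 without RBC. In chow macrophages it was 8.50 and 8.47 with high-fat RBC, 8.69 and 8.53 with chow RBC, and 8.29 and 8.26 without RBC. Every high-fat macrophage array was below every chow macrophage array, and in both macrophage diets the arrays with RBC were above those without. Ordered by mean, the groups ran chow macrophages with chow RBC, with high-fat RBC and without RBC, then high-fat macrophages with chow RBC, with high-fat RBC and without RBC, and only the neighbouring high-fat groups given chow RBC and high-fat RBC overlapped.

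Fcgr3 encodes the low-affinity activating receptor that binds immune complexes. Its log2 signal in high-fat macrophages was 10.58 and 10.79 with high-fat RBC, 10.64 and 10.57 with chow RBC, and 10.49 and 10.70 without RBC. In chow macrophages it was 10.50 and 10.50 with high-fat RBC, 10.53 and 10.49 with chow RBC, and 9.94 and 9.86 without RBC. The chow macrophages without RBC were below all other arrays, and the other 5 groups overlapped their neighbours in the order of means. That order ran high-fat macrophages with high-fat RBC, chow RBC and no RBC, then chow macrophages with chow RBC and high-fat RBC.

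Fcgr4, the activating receptor of intermediate affinity, had a log2 signal in high-fat macrophages of 7.68 and 7.68 with high-fat RBC, 7.56 and 7.35 with chow RBC, and 7.62 and 7.88 without RBC. In chow macrophages it was 7.95 and 8.07 with high-fat RBC, 7.95 and 7.87 with chow RBC, and 7.36 and 7.38 without RBC. Chow macrophages with either RBC were higher than chow macrophages without RBC, with no overlap. From the highest mean the groups ran chow macrophages with high-fat RBC, chow macrophages with chow RBC, then high-fat macrophages without RBC, with high-fat RBC and with chow RBC, and chow macrophages without RBC. In this order high-fat macrophages without RBC overlapped both of their neighbours, high-fat macrophages with chow RBC overlapped chow macrophages without RBC, and the other neighbours were apart.

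Fcgr2b, the inhibitory receptor, had a log2 signal in high-fat macrophages of 7.99 and 7.82 with high-fat RBC, 7.94 and 7.97 with chow RBC, and 7.86 and 7.78 without RBC. In chow macrophages it was 8.36 and 8.25 with high-fat RBC, 8.27 and 8.40 with chow RBC, and 8.78 and 8.65 without RBC. The 3 high-fat macrophage groups lay below the chow macrophage groups. Among them cells with high-fat RBC overlapped both other groups, and both arrays with chow RBC were above both arrays without RBC. Among chow macrophages the cells without RBC were highest and the 2 exposed groups overlapped.

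Fcer1g, the common gamma chain, had a log2 signal in high-fat macrophages of 11.74 and 11.74 with high-fat RBC, 11.69 and 11.65 with chow RBC, and 11.71 and 11.73 without RBC. In chow macrophages it was 11.71 and 11.65 with high-fat RBC, 11.77 and 11.70 with chow RBC, and 11.86 and 11.74 without RBC. Chow macrophages without RBC had the highest mean, and their range overlapped that of chow macrophages with chow RBC. The other 5 groups overlapped their neighbours in the order of means.

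The macrophage donor's diet was compared first in cells without RBC. Here 4 of the 5 genes passed the test (limma, p adjusted by Benjamini-Hochberg over the whole gene table, below 0.05), where 13.9% of all genes did. Fcgr1 fell by 1.81 ± 0.11 log2 units (SE), 3.50-fold lower in high-fat than in chow macrophages (adjusted p = 3.98e-08), and Fcgr2b fell by 0.89 ± 0.10 (adjusted p = 3.47e-05). Fcgr3 rose by 0.69 ± 0.11 (adjusted p = 4.18e-04) and Fcgr4 by 0.38 ± 0.11 (adjusted p = 0.0324). So the high-affinity receptor and the inhibitory receptor were lower, and the low-affinity and intermediate-affinity activating receptors higher, in high-fat macrophages. The Fcer1g difference was -0.08, with a 95% interval from -0.28 to 0.11 (adjusted p = 0.643). In whole-culture RNA, fewer cells of a type and less RNA per cell cannot be told apart.

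The changes of Fcgr1, Fcgr3 and Fcgr2b without RBC passed without each of the 4 compared arrays in turn. That of Fcgr4 did not. Its adjusted p in limma was 0.127 or more without either array of chow macrophages or without replicate 2 of the high-fat macrophages, and its size ranged from 0.26 to 0.51 log2 units over the 4 omissions. It was 0.0757 with array weights and 0.107 in a fit to the compared arrays only.

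Averaged over the 3 RBC conditions, 3 of the 5 genes passed, against 13.3% of all genes. Fcgr1 fell by 1.43 ± 0.06 (adjusted p = 1.4e-09), Fcgr2b fell by 0.56 ± 0.06 (adjusted p = 1.72e-05) and Fcgr3 rose by 0.32 ± 0.06 (adjusted p = 0.00216) in high-fat macrophages, and all 3 passed without each of the 12 arrays in turn. Among cells given chow RBC 2 of 5 passed, against 2.47% of all genes. Fcgr1 fell by 1.29 (adjusted p = 8.36e-06), and Fcgr4 fell by 0.46 (adjusted p = 0.0439), the opposite sign to its change without RBC. The Fcgr4 call with chow RBC was lost without any of its 4 arrays (adjusted p 0.0743 to 0.358) and in a fit with the replicate block (0.0605). Among cells given high-fat RBC 1 of 5 passed, against 1.36% of all genes. This was Fcgr1, which fell by 1.20 (adjusted p = 1.86e-05). The Fcgr2b difference between macrophage diets was -0.40 where both had high-fat RBC (limma adjusted p = 0.0909) and -0.38 where both had chow RBC (adjusted p = 0.0752).

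Exposure to RBC was compared with no RBC within each macrophage diet. In chow macrophages 3 of 5 genes passed with high-fat RBC, where 8.34% of all genes did, and 3 of 5 with chow RBC, where 9.18% did. Both comparisons share the same 2 unexposed arrays. Fcgr3 rose by 0.60 ± 0.11 with high-fat RBC (adjusted p = 0.00262) and by 0.61 ± 0.11 with chow RBC (adjusted p = 0.00231). Fcgr4 rose by 0.64 ± 0.11 (adjusted p = 0.00212) with high-fat RBC and by 0.55 ± 0.11 (adjusted p = 0.00651) with chow RBC. Fcgr2b fell by 0.41 ± 0.10 (adjusted p = 0.0253) with high-fat RBC and by 0.38 ± 0.10 (adjusted p = 0.0343) with chow RBC. These are 2 activating receptors up and the inhibitory one down. Fcgr1 differed by 0.21 (adjusted p = 0.261) with high-fat RBC and by 0.34 (adjusted p = 0.0636) with chow RBC.

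Without each of the 4 compared arrays in turn, the Fcgr3 changes in chow macrophages passed throughout, and so did that of Fcgr4 with high-fat RBC. The Fcgr2b call was lost each time, with limma adjusted p between 0.0655 and 0.206 for high-fat RBC and between 0.0611 and 0.207 for chow RBC, and its size stayed between -0.47 and -0.31. That of Fcgr4 with chow RBC was lost without replicate 1 of the exposed (0.0608) or replicate 2 of the unexposed cells (0.0513).

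In high-fat macrophages 1 of 5 genes passed with high-fat RBC, where 0.752% of all genes did, and 1 of 5 with chow RBC, where 0.647% did. It was Fcgr1 both times. Fcgr1 rose by 0.82 ± 0.11 (adjusted p = 0.00126) with high-fat RBC and by 0.86 ± 0.11 (adjusted p = 8.59e-04) with chow RBC, and it passed without each compared array in turn. The share of all genes that passed depended on single arrays, at 0.331% to 1.45% with high-fat RBC and 0.271% to 2.3% with chow RBC when 1 of the 4 compared arrays was left out, against 3.56% to 5.56% and 3.64% to 6.54% in chow macrophages. In high-fat macrophages it was highest, for both kinds of RBC, without replicate 2 of the unexposed cells. In a fit to the compared arrays only, the adjusted p of Fcgr1 with high-fat RBC was 0.0716. Fcgr3 differed by 0.09 (95% interval -0.13 to 0.32) with high-fat RBC and by 0.01 (-0.21 to 0.24) with chow RBC, and Fcgr2b by 0.08 (-0.14 to 0.31) and 0.13 (-0.09 to 0.35) in the same order. Fcgr4 differed by -0.07 (-0.31 to 0.17) with high-fat RBC and by -0.30 (-0.54 to -0.06, adjusted p = 0.369) with chow RBC. Averaged over all exposed groups, where 7.42% of all genes passed, Fcgr1 rose by 0.55 ± 0.06 (adjusted p = 1.13e-04) and Fcgr3 by 0.33 ± 0.06 (adjusted p = 0.00706), 2 of the 5 genes, and both passed without each of the 12 arrays in turn.

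**Figure D2:**
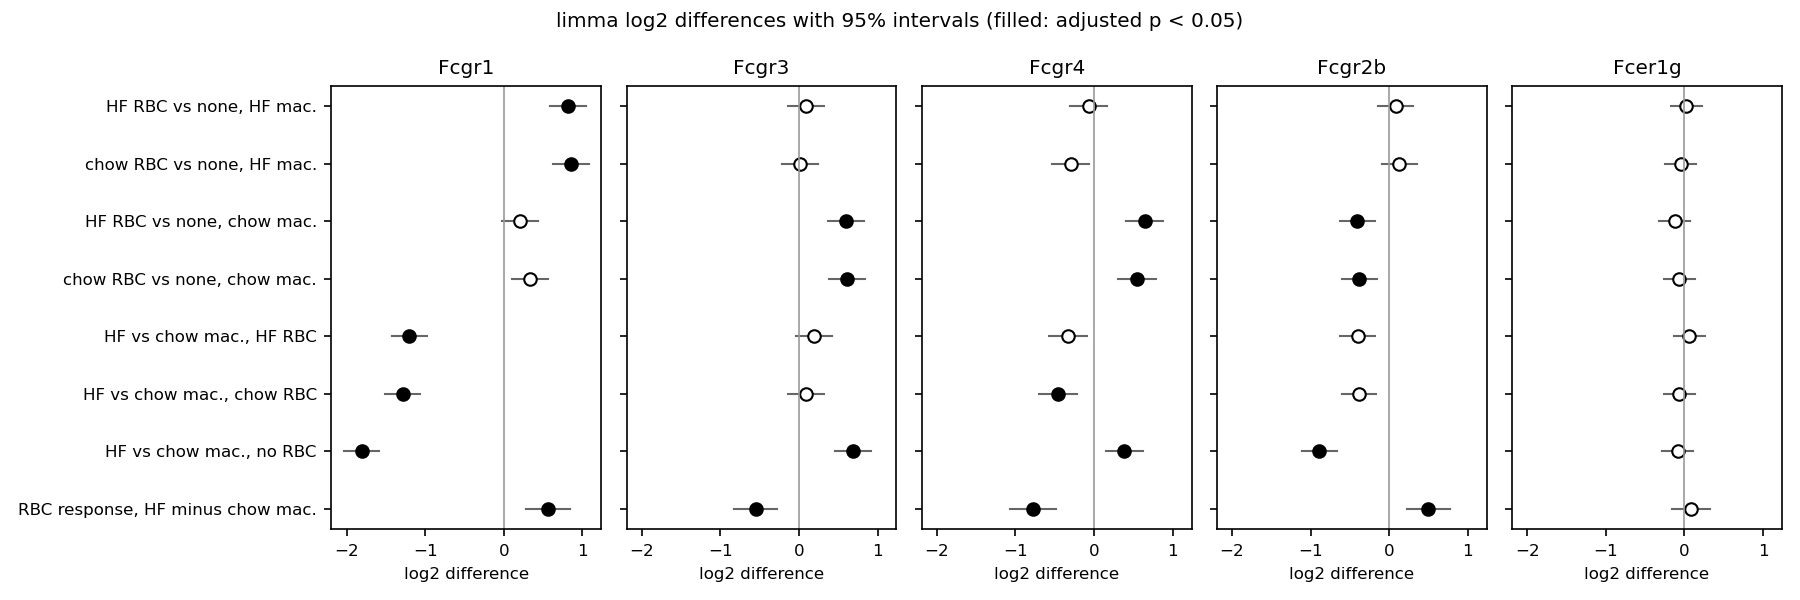
Log2 differences of each gene (points, filled where the limma adjusted p is below 0.05) with 95% intervals, for the 4 RBC exposures, the 3 comparisons of high-fat with chow macrophages, and the difference between the macrophage diets in the RBC response. Fcgr1 passes in both exposures of high-fat macrophages, and Fcgr3, Fcgr4 and Fcgr2b in both exposures of chow macrophages.

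Whether the response to RBC differed between the macrophage diets was tested as an interaction, with the chow macrophages' response subtracted from that of high-fat macrophages, where 4 of 5 genes passed, against 5.67% of all genes. The response of Fcgr1 was larger by 0.57 ± 0.13 (adjusted p = 0.0193) in high-fat macrophages. Those of Fcgr3 and Fcgr4 were lower there by -0.55 ± 0.13 (adjusted p = 0.0224) and -0.78 ± 0.14 (adjusted p = 0.00335), and that of Fcgr2b higher by 0.50 ± 0.13 (adjusted p = 0.0328). For Fcer1g the difference was 0.08 ± 0.11 (adjusted p = 0.784). Fcgr4 passed without each of the 12 arrays in turn, whereas the call was lost in 3 omissions for Fcgr1, 6 for Fcgr3 and 9 for Fcgr2b, with limma adjusted p up to 0.0754, 0.12 and 0.139. Omission of either array of chow macrophages without RBC, or of replicate 2 of high-fat macrophages without RBC, ended the call for all 3 of these genes. For Fcgr2b the adjusted p was 0.0693 after quantile normalization and 0.0618 with array weights.

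The diet of the RBC donor was compared within exposed cells. None of the 5 genes passed in limma at an adjusted p below 0.05, and 0 of the 5 had an unadjusted p below 0.05, for high-fat against chow RBC averaged over the macrophage diets, within chow macrophages, within high-fat macrophages or in the interaction with macrophage diet. Of all genes 0.0100% passed in the average and 0.0251% in high-fat macrophages. In chow macrophages 0% passed (555 genes at an unadjusted p below 0.05), and in the interaction 0% (718 genes). The averaged difference of Fcgr4 was 0.16, with a 95% interval from -0.0048 to 0.33, that of Fcgr1 -0.09 (-0.25 to 0.07) and that of Fcgr3 0.03 (-0.13 to 0.19). For Fcgr2b it was -0.04 (-0.19 to 0.12) and for Fcer1g 0.01 (-0.13 to 0.15).

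Each activating receptor was also set against Fcgr2b, as the log2 difference of the 2 signals on an array relative to its mean in chow macrophages without RBC. This is a description with no test of its own. For Fcgr3 the group means were 1.59 in high-fat macrophages with high-fat RBC, 1.47 with chow RBC and 1.58 without RBC, against 1.00 and 0.99 in chow macrophages with high-fat RBC and with chow RBC. For Fcgr4 they were 1.12, 0.85 and 1.27 in high-fat macrophages with high-fat RBC, chow RBC and no RBC, against 1.05 and 0.92 in chow macrophages with high-fat RBC and chow RBC. Both stood above chow macrophages without RBC in all 5 other groups. This follows from the choice of baseline, the group with the lowest Fcgr3 and Fcgr4 means and the highest Fcgr2b mean. For Fcgr1 they were -0.19, -0.19 and -0.92 in high-fat macrophages with high-fat RBC, chow RBC and no RBC, against 0.61 and 0.72 in chow macrophages with high-fat RBC and chow RBC. The extracellular parts of the mouse Fcgr2b and Fcgr3 products are known to be very alike, and whether probes cross-react was not tested.

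**Figure D3:**
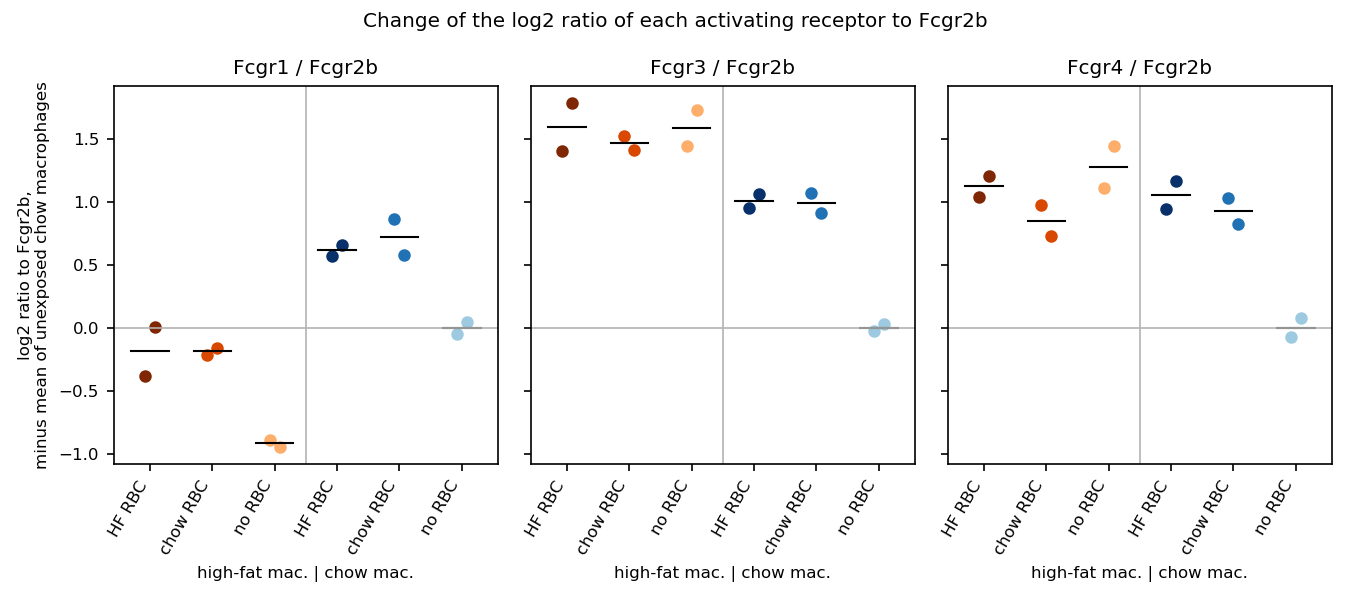
Log2 difference of Fcgr1, Fcgr3 and Fcgr4 to Fcgr2b on each array (points; bars are group means), relative to the mean in chow macrophages without RBC, with high-fat macrophages left of chow macrophages. Fcgr3 and Fcgr4 lie above 0 in the 5 other groups, and the group means of Fcgr1 lie below 0 in the 3 high-fat macrophage groups. The baseline group has the lowest Fcgr3 and Fcgr4 means and the highest Fcgr2b mean.

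Other genes of the pathway were taken from lists of general knowledge and described by counts. The lists were chosen with earlier results of these data known, so their counts are a description and no test. Between high-fat and chow macrophages without RBC 13.9% of all genes passed, 8.12% higher and 5.82% lower in high-fat macrophages, which is the background for the counts that follow. There, 4 of 29 measured activating signalling genes rose and 8 fell, with a list median of -0.15 log2 units against -0.01 for all genes. Malt1, part of the CARD9 signalling complex, fell by 1.10, the kinase Src by 1.04 and the adapter Lcp2 (SLP-76) by 0.96, while the Ras activator Rasgrp3 rose by 1.09. The kinase Syk (-0.17, limma adjusted p = 0.311), the ITAM adapter Tyrobp (0.17, adjusted p = 0.264) and Inpp5d, which encodes SHIP1 (0.14, adjusted p = 0.406), did not pass. These 3 were picked for their roles after their values were seen. With 1 of the 4 compared arrays left out, 3 to 4 activating signalling genes rose and 6 to 11 fell. Of 24 inhibitory signalling genes 2 rose and 7 fell (median -0.16), and 1 to 3 rose and 4 to 8 fell with an array left out. Siglece, an ITIM-bearing sialic acid receptor, fell by 2.53 and the phosphatase Ptpn6 (SHP-1) by 0.51.

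Among 16 measured ITAM adapters and partner receptors 2 rose and 3 fell in the same comparison (median -0.12), where 8.12% of all genes rose and 5.82% fell. With an array left out 2 rose and 3 to 5 fell. Clec4e and Clec4n, which encode Mincle and Dectin-2 and signal through the Fcer1g chain, changed by -3.60 and -2.51. Hcst (DAP10), an adapter on this list that itself carries no ITAM, rose by 0.77. Of 14 other Fc and antibody receptors 4 fell and 0 rose (median -0.29). They were Fcmr, the IgM receptor (by 1.25), Fcrla (0.58), Fcrl1 (0.55) and Fcrl5 (0.54), all genes known from B cells, and 1 to 6 of the list fell with an array left out. Of 13 measured B cell markers 7 fell and 1 rose, Cd79a by 2.19 among those that fell (3 to 7 fell with an array left out), and their mean log2 signal was 4.28 to 4.41 in high-fat and 4.89 to 4.97 in chow macrophages without RBC. B cells also express Fcgr2b, and the part of B cell transcripts in its difference was not tested.

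Of 26 measured regulators of Fc receptor expression 2 rose and 15 fell in high-fat macrophages without RBC, with a median of -0.39 against -0.01 for all genes and with 8.12% of all genes higher and 5.82% lower. With an array left out 1 to 3 rose and 8 to 14 fell, and the 2 omissions of an array of chow macrophages gave the 10 and 8 that fell. The C5a receptor gene C5ar1 fell by 1.39, Stat2 by 1.33, the interleukin 4 receptor gene Il4ra by 1.22 and Csf1r by 0.81. Of 32 phagocytic cup genes 4 rose and 5 fell, with a median of 0.00, and 3 to 6 rose and 2 to 6 fell with an array left out. The Rac activator gene Dock2 rose by 0.97 and the actin regulator Gsn by 0.75, and Vasp fell by 0.77 and Myo10 by 0.75. Of 12 macrophage markers 2 rose and 6 fell in the same comparison, Cd14 by 1.82 and Adgre1 by 1.17 among them, and their mean log2 signal was 8.51 to 8.57 in high-fat and 8.97 to 8.98 in chow macrophages. Their part in the receptor differences was not tested.

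In chow macrophages 5.41% of all genes rose and 2.93% fell with high-fat RBC, and 6.23% rose and 2.94% fell with chow RBC. The activating signalling genes that passed there all fell, 8 of 29 with high-fat RBC (median -0.14) and 9 with chow RBC (median -0.22). With an array left out 3 to 6 fell with high-fat RBC and 2 to 5 with chow RBC, the fewest in both without replicate 2 of the unexposed cells. Syk differed by -0.17 (limma adjusted p = 0.337) with high-fat RBC and fell by 0.36 (adjusted p = 0.0365) with chow RBC. Malt1 fell by 1.29 with high-fat RBC and by 1.35 with chow RBC, and the Rac activator Vav1 by 0.62 and 0.55. Of the 16 ITAM partners 3 rose and 2 fell with each kind of RBC, while 1 rose with high-fat RBC and 2 with chow RBC in every omission of an array, and 2 fell. Clec4e fell by 1.75 with high-fat RBC and 1.61 with chow RBC, and Clec7a (Dectin-1), whose own tail signals, rose by 0.68 and 0.61. Of the inhibitory signalling genes 3 fell and 0 rose with each, and of the phagocytic cup genes 2 rose and 2 fell with each. In every omission of an array fewer of the inhibitory signalling genes fell and fewer of the phagocytic cup genes rose. Of the regulators 5 fell with high-fat RBC and 4 with chow RBC, Stat2 by 0.57 and 0.54, and 0 rose. With an array left out 0 to 4 fell with high-fat RBC and 0 to 3 with chow RBC. Of the other Fc receptors only Fcmr passed, which fell by 0.92 with high-fat RBC and by 0.76 with chow RBC. Its call with chow RBC was lost without replicate 2 of the unexposed cells.

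In high-fat macrophages 4 of 16 ITAM partners rose with high-fat RBC and 2 with chow RBC, and none fell, where 0.647% and 0.557% of all genes rose. With an array left out 2 to 4 rose with high-fat RBC and 1 to 3 with chow RBC. Clec4n rose by 1.45 with high-fat RBC and by 0.71 with chow RBC, and Clec4e by 1.14 and 1.05, in the direction opposite to its fall in chow macrophages. The interaction for Clec4e was 2.78 ± 0.14 (limma adjusted p = 4.42e-08). Of the 26 regulators 1 rose with high-fat RBC and 2 with chow RBC, and none fell. Il4ra rose by 0.52 with high-fat RBC and by 0.48 with chow RBC. The calls on regulators were not kept in every omission of an array. Siglece rose by 1.19 with high-fat RBC, and Rasgrp3 fell by 0.88 with high-fat RBC and by 0.95 with chow RBC.

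**Figure D4:**
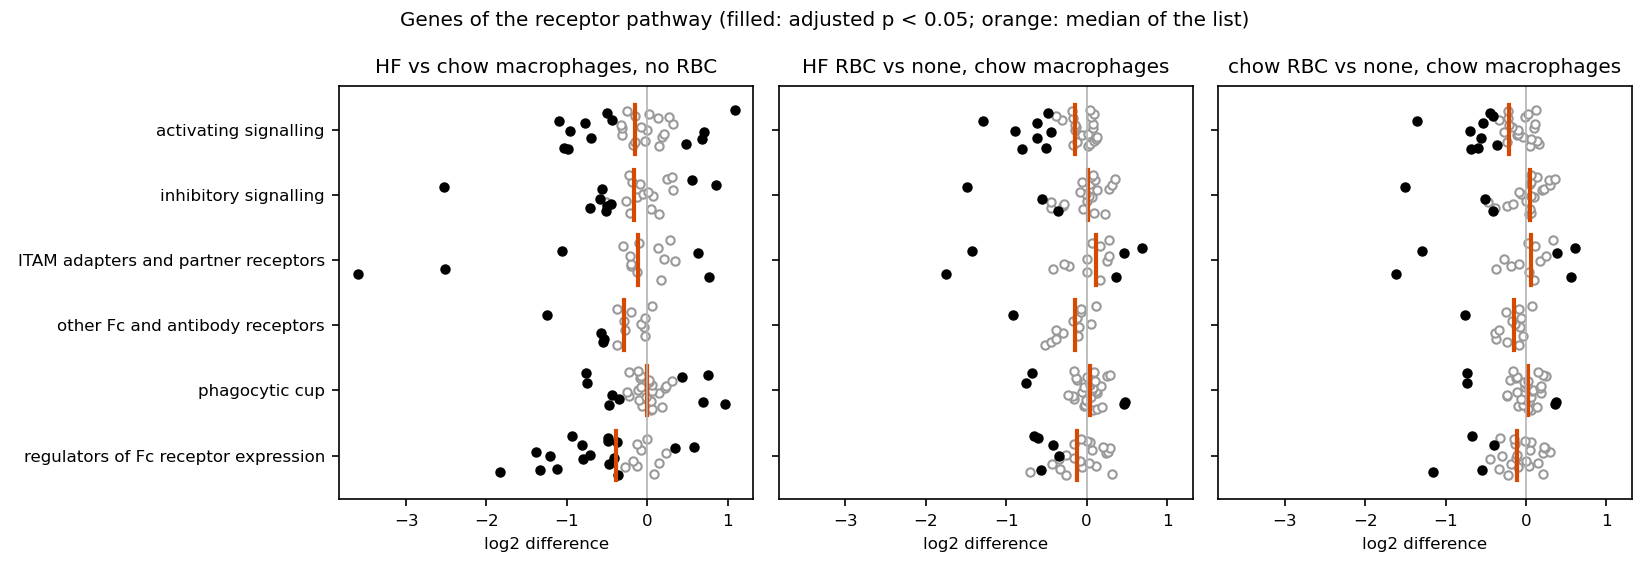
Log2 differences of the genes of 6 pathway lists (points, filled where the limma adjusted p is below 0.05; orange lines are list medians) in high-fat against chow macrophages without RBC and in chow macrophages with high-fat or chow RBC against none. In the left panel 15 of 26 regulators of Fc receptor expression fell and 2 rose, where 5.82% of all genes fell and 8.12% rose.

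Some neutrophil and platelet transcripts were higher in exposed cultures, and neutrophils express Fc gamma receptors themselves. The mean log2 signal of 14 measured neutrophil markers in high-fat macrophages was 6.28 to 6.29 with high-fat RBC and 5.98 to 6.02 with chow RBC, against 5.10 to 5.19 without RBC. In chow macrophages it was 6.15 to 6.23 with high-fat RBC and 6.11 to 6.20 with chow RBC, against 5.52 without RBC. S100a9, a neutrophil calcium-binding protein, rose by 6.72 and 5.84 in high-fat macrophages with high-fat RBC and chow RBC, and by 5.36 and 5.13 in chow macrophages with the same RBC. Of the 14 neutrophil markers 6 and 5 rose in high-fat macrophages with high-fat RBC and chow RBC, where 0.752% and 0.647% of all genes passed, and 5 rose and 1 fell in chow macrophages with each, where 8.34% and 9.18% passed. A few genes carry these means. The median difference of the list was 0.42 and 0.33 in high-fat macrophages with high-fat RBC and chow RBC, and 0.03 and 0.10 in chow macrophages. The neutrophil genes Ly6g, Ltf, Camp, Elane and Mpo, chosen after their values were seen, passed in none of the 4 exposures. B cell markers averaged 4.55 to 4.60 with high-fat RBC and 4.65 to 4.74 with chow RBC in chow macrophages, against 4.89 to 4.97 without RBC. Platelet markers (9 measured) averaged 6.40 to 6.60 with high-fat RBC and 6.78 to 6.84 with chow RBC in high-fat macrophages, against 5.49 to 5.69 without RBC. In chow macrophages they averaged 6.39 to 6.70 with high-fat RBC and 6.80 to 6.83 with chow RBC, against 5.90 to 5.93 without RBC. The median difference of the platelet list was 0.53 and 0.76 in high-fat macrophages with high-fat RBC and chow RBC, and 0.11 and 0.30 in chow macrophages. Ppbp, a platelet chemokine, rose by 4.65 and 5.47 in high-fat macrophages with high-fat RBC and chow RBC. It rose in chow macrophages by 3.50 with high-fat RBC and by 4.14 with chow RBC, whereas Pf4, also chosen after its values were seen, passed in none of these 4 exposures. The other lists spanned less, with means over the 12 arrays of 4.73 to 4.9954 for erythroid cells, 3.79 to 3.98 for T and NK cells, 3.87 to 4.13 for mast cells and basophils, 4.11 to 4.35 for eosinophils, 4.66 to 5.12 for dendritic cells, 5.55 to 5.85 for mesothelium and fibroblasts and 5.82 to 6.02 for adipocytes. Averaged over all exposed groups 2 of 12 measured erythroid markers rose, Alas2 by 1.09 and Bpgm by 0.67, and the other 10 did not pass. In that comparison 5.23% of all genes rose. Dendritic cell markers averaged 4.66 to 4.90 in high-fat and 5.05 to 5.12 in chow macrophages without RBC. Of 12 mesothelial and fibroblast markers 3 rose in chow macrophages with each kind of RBC. There 5.41% of all genes rose with high-fat RBC and 6.23% with chow RBC. In high-fat macrophages 0 passed with either kind of RBC. Without RBC 3 of the 12 were higher in high-fat than in chow macrophages, where 8.12% of all genes were. That comparison and the exposures of chow macrophages share the arrays of chow macrophages without RBC. The part of neutrophil, platelet, B cell or other cells' transcripts in the receptor changes was not tested.

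**Figure D5:**
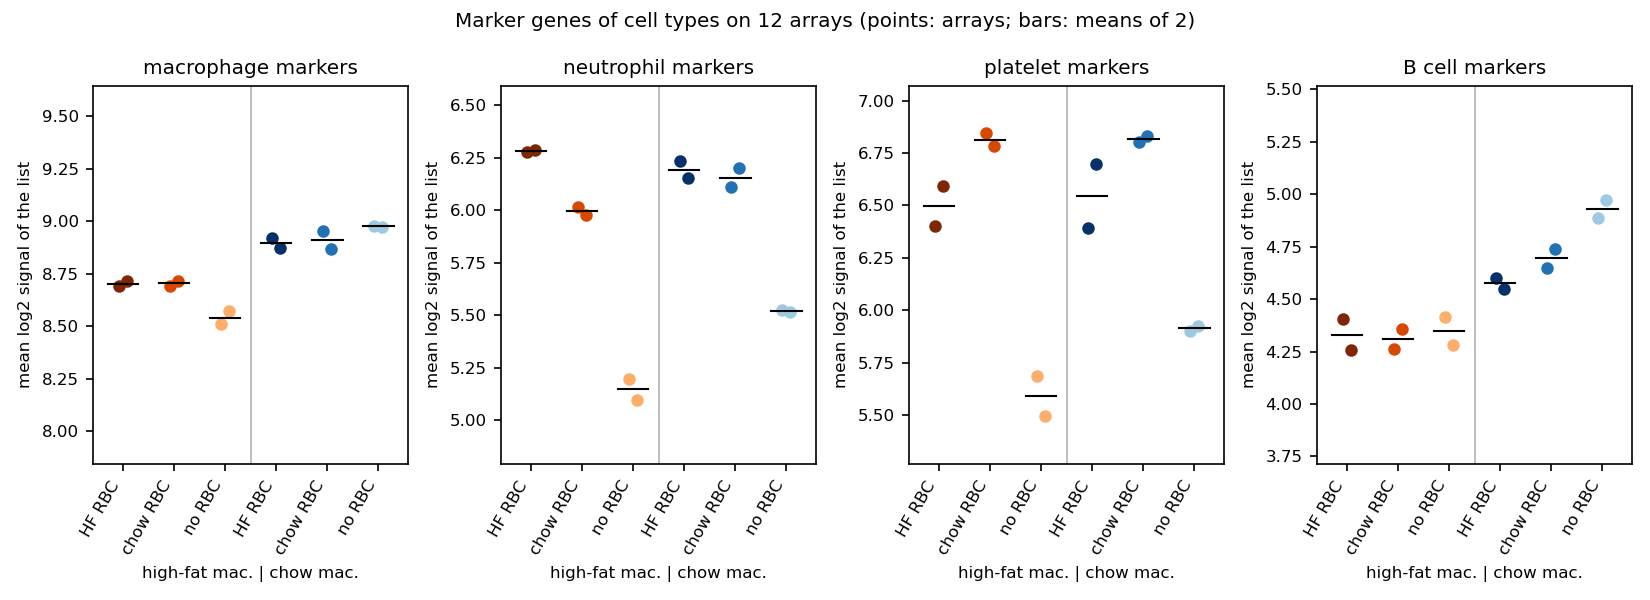
Mean log2 signal of the macrophage, neutrophil, platelet and B cell marker lists on each array (points; bars are group means), high-fat macrophages left of chow macrophages. The list means of neutrophil and platelet markers are higher in all exposed groups than in the unexposed group of the same macrophage diet. Not every marker of these 2 lists rose. The list mean of B cell markers is highest in chow macrophages without RBC.

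The genes whose pattern over the 12 arrays was most like that of each member were ranked by Pearson correlation, a description in which all genes share the arrays and the differences between groups. For Fcgr1 they were C5ar1 (0.98), Themis2, Ms4a6b, Trib1 and S1pr1 (each 0.97). For Fcgr2b they were Zmynd15, Bst2, H2-Eb1, H2-Ab1 and Creb5 (each 0.98). For Fcgr3 they were 2310061I04Rik (0.99), Arhgef6, Parva, Dhrs7 and Ube3b (each 0.98), and for Fcgr4 Tex9 (0.93), Spice1, Acot2, Pigm and Thap3 (each 0.92). For Fcer1g, whose range was small, the highest were Gm12359 (0.89), Sp5, Rragb (each 0.88), Rsad1 (0.87) and Gfi1 (0.85).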

How the data were processed

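Per the labels' protocols, total RNA from RNeasy columns went through the WTA-Ovation FFPE V2 kit and the Encore biotin module and was hybridised to an Affymetrix Mouse Gene ST array. The authors deposited log2 signals per probe set and array. The log2 scale was read from the values, and the summarization and normalization are not given in the sources used here. Raw intensities and detection calls were not analysed here. Precision is limited by the number of arrays.

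Among 35556 probe sets with values, 21789 had 1 gene symbol. For 999 genes with several probe sets the one of highest mean was kept, which left 19938 genes, with no filter. The limma fit (3.58.1, R 4.3.3) took 1 mean per group over the 12 arrays (residual df 6, prior df 7.69). It gave 14 contrasts, and a gene passed where its p, adjusted by Benjamini-Hochberg across the gene table, was below 0.05. Since nothing says that arrays came from separate cultures beyond their animal numbers, p-values measure the spread between these arrays. The procedure was tested on simulated data.

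The 5 genes are always named. Of each list up to 4 called genes of smallest p per comparison may be named, and for each member the 5 genes of highest correlation. Members and lists were chosen with earlier results of these data known. Alternatives were a threshold of 0.10, quantile normalization, removal of the lowest 33.3% of genes, intensity trend with robust variance, the animal number as a block, array weights, fits to the compared arrays, omission of each array and averaging over the probe sets of a gene.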

Additional observations from a re-analysis of the deposited data

Results flagged for a closer look

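The response to RBC differed between the macrophage diets for 4 of the 5 genes by the interaction term in limma, fitted over all 12 arrays. With the chow macrophages' response subtracted from that of high-fat macrophages, the difference was 0.57 for Fcgr1 (adjusted p = 0.019), -0.55 for Fcgr3 (adjusted p = 0.022), -0.78 for Fcgr4 (adjusted p = 0.0033) and 0.50 for Fcgr2b (adjusted p = 0.033). Every one of them rests on the 2 arrays of chow macrophages without RBC and on the 2 of high-fat macrophages without RBC. Without either of those chow arrays the calls of Fcgr1, Fcgr3 and Fcgr2b were lost, and that of Fcgr4 was kept. The same held without replicate 2 of the high-fat macrophages without RBC.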

How the results depend on the processing

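Of the member values that passed the test, 316 of those recomputed under an alternative kept direction and call, 43 kept direction but not the call, and 0 reversed. Of values that had not passed, 347 stayed so, 11 passed and 8 changed sign, all small. In high-fat macrophages with chow RBC, Fcgr3 was -0.0287 after quantile normalization and ranged from -0.0928 to 0.117 with an array left out. With high-fat RBC, Fcer1g was -0.0026 after quantile normalization, and with an array left out Fcgr2b ranged from -0.0026 to 0.17, Fcgr3 from -0.0123 to 0.1975 and Fcgr4 from -0.1961 to 0.0556. The causes were not tested. The number of members called was 0 for high-fat RBC in high-fat macrophages when fitted to the compared arrays only, and ranged from 1 to 2 for chow RBC in chow macrophages and from 1 to 4 for the interaction with macrophage diet with an array left out. For high-fat against chow macrophages with chow RBC it was 1 under the replicate block over all groups, 1 in a fit to the compared arrays and 1 without each of its 4 arrays in turn. For the same comparison with high-fat RBC it was 2 at an adjusted p below 0.10, 2 with an intensity trend and robust variance and 2 with array weights. Over 15 pairs of groups, deviations of same-numbered arrays correlated between -0.226 and 0.344. Only groups of the same macrophage diet could share a macrophage donor. There the correlations ran from -0.025 to 0.138 in chow and from -0.077 to 0.344 in high-fat macrophages. With so few arrays these values cannot tell whether animal numbers pair the arrays. The replicate block over all groups left 4 members called without RBC and 4 in the interaction. Counts of the gene lists with each array left out were added after seeing the data. Signal over background is unknown, so low signals carry an unknown floor.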
